A study of Arabidopsis thaliana with 4 samples.

Results

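Transcripts of 9 loci of the UMAMIT family of Arabidopsis thaliana were followed across 4 root tip libraries, because UMAMIT20 (AT4G08290) and UMAMIT28 (AT1G01070) had been picked out as strongly lower in the mutant med16-2. The other members were UMAMIT17 (AT4G08300), UMAMIT14 (AT2G39510), UMAMIT18 (AT1G44800, also called SIAR1), UMAMIT11 (AT2G40900), UMAMIT21 (AT5G64700), UMAMIT19 (AT1G21890) and UMAMIT32 (AT3G30340). They are 9 of the 47 UMAMIT loci among the 33602 loci counted. Since the members were chosen on the difference between genotypes, that difference is described here for them without a test.

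The seedlings were collected 4 days after germination, and RNA from root tips was sequenced. The groups were med16-2 at low phosphate (5 µM), med16-2 at high phosphate (1 mM), Col-0 at low phosphate and Col-0 at high phosphate. The labels give the ecotype Col 0 (CS70000) for every library and name 1 mutant allele, so the 4 libraries hold no other allele of MED16. Each group has 1 library, so a ratio of 2 libraries compares those libraries, and no spread between plants can be given for it.

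UMAMIT stands for "Usually multiple acids move in and out transporters". These membrane proteins let amino acids pass down their gradient in either direction, and the best-known members release amino acids from cells, for example where the phloem unloads into sink tissue or where the seed coat feeds the embryo. Root tips are a sink that draws its amino acids largely from the phloem. MED16 is a subunit of the tail of Mediator, the complex through which transcription factors act on RNA polymerase II.

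Values are CPM, counts scaled to the size of the library, after scaling the libraries with the trimmed mean of M values (TMM). A locus met the size rule where 2 libraries differed at least 2-fold and the exact 95% interval of the ratio (Clopper-Pearson) excluded equality. Loci averaging under 1 CPM were set aside, which left 18692. Intervals follow each ratio in parentheses and cover counting error only. In bulk tissue, fewer cells of a type and less RNA per cell cannot be told apart.

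MED16 itself had 48 and 56 counts in med16-2 at low and high phosphate, against 747 and 420 counts in Col-0 at low and high phosphate. It was 11.8-fold (8.93 to 16.4) lower at low phosphate and 10.9-fold (8.28 to 14.8) lower at high phosphate, which goes with the labels. Gene counts per library ran between 10079345 and 15696333. Alignments that were not unique made up 36.6% of all listed counts for med16-2 at low phosphate and 6.65% to 9.27% in the other libraries. The comparison of the genotypes at high phosphate does not use that library. The 11 meristem and root cap markers were detected in every library, with sums of 262 and 275 CPM in med16-2 at low and high phosphate and of 275 and 276 CPM in Col-0 at low and high phosphate. The stem cell regulator WOX5 was lower in med16-2 at low phosphate, with 7 counts against 56 in Col-0, and had 5 counts in each genotype at high phosphate, where it did not meet the size rule.

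Sequences upstream of 4 members are printed because 2 of them were named by the rule that chose the group, and the others are the most alike pair in coding sequence. Each run is the 250 bases before the annotated start, read 5′ to 3′ on the gene's own strand from the RefSeq TAIR10.1 genome. The files give no coordinates, and positions were looked up by locus identifier. In the first 2 runs the capitals mark matches to the motifs searched, and in the last 2 they mark 24 bases that the windows of UMAMIT17 and UMAMIT18 share. The windows lie at chr4:5238523-5238772 (plus strand) for UMAMIT20, chr1:41018-41267 (minus strand) for UMAMIT28, chr4:5244615-5244864 (plus strand) for UMAMIT17 and chr1:16917054-16917303 (minus strand) for UMAMIT18.
UMAMIT20: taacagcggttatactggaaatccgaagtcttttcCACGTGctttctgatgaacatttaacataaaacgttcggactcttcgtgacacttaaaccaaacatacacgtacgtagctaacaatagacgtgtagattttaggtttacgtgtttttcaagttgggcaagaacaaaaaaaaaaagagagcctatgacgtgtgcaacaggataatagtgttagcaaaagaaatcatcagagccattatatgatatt
UMAMIT28: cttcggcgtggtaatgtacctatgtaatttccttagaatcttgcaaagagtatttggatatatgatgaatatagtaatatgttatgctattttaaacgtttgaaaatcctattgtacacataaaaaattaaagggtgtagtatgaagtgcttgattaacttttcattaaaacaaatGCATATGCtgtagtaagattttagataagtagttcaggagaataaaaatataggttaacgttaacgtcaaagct
UMAMIT17: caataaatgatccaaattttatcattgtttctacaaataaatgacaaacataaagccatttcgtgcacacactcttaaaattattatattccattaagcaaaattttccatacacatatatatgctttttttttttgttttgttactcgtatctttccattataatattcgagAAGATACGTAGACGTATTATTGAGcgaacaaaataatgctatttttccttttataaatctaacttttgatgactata
UMAMIT18: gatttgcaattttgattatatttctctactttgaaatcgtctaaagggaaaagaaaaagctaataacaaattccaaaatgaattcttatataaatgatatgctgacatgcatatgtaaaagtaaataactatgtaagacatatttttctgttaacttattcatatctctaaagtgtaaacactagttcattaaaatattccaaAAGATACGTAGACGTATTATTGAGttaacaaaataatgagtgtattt

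Motifs were searched on both strands of the 250-base window of 27443 protein-coding genes, and overlaps between motifs were allowed. GNATATNC, the element bound by the phosphate starvation regulator PHR1, was found in 2 of 9 members and in 5.46% of all windows. It read GCATATGC in the UMAMIT28 window and GGATATCC in the UMAMIT14 window. CACGTG, the G-box bound by bHLH and bZIP factors, was found in 1 member, UMAMIT20, at 215 to 210 bases before the start, and in 6.49% of all windows. ACTCAT, an element known from proline-responsive genes, was found in UMAMIT18 and UMAMIT21 and in 12.3% of all windows. CCGAC, the core of the cold and drought element, was found in 0 of 9 members and in 12.0% of all windows. The 24 bases shared by UMAMIT17, at 77 to 54 bases before its start, and UMAMIT18, at 47 to 24 bases before its start, occurred in these 2 of 27443 windows. The next-longest run shared by any pair of members was 11 bases. This shared run was noticed after the sequences had been seen, and a match is a description of letters, not of a binding site.

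UMAMIT20 and UMAMIT17 are neighbours on chromosome 4. UMAMIT20 is annotated at chr4:5238773-5241112 and UMAMIT17 at chr4:5244865-5248394, both on the plus strand, with 3752 bases and 0 annotated loci between them. MED16 lies on the same chromosome, 2.73 Mb from UMAMIT20. UMAMIT28 is at chr1:38444-41017, UMAMIT14 at chr2:16491143-16493343, UMAMIT18 at chr1:16913994-16917053 and UMAMIT11 at chr2:17063098-17065813, all on the minus strand. UMAMIT21 (chr5:25864937-25867025) overlaps AT5G09245, and UMAMIT19 (chr1:7682584-7685662) overlaps AT1G21880. Because the libraries do not keep strand, reads of those overlapping genes cannot be told apart. UMAMIT32 is at chr3:11956458-11959098. The coding sequence is split over 6 exons in UMAMIT28 and UMAMIT32 and over 7 exons in the other members.

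Coding sequences of the members were 54.6% to 77.2% identical over the 36 pairs, with a median of 59.6%. UMAMIT17 and UMAMIT18 were the most alike pair, at 77.2%. Stretches of 50 exonic bases recurred elsewhere in the nuclear genome for 2.02% of positions in UMAMIT28 and for 0% in the other members, so the members have few positions where a read of that length could have been placed elsewhere.

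UMAMIT18 was the most abundant member in every library. Per kilobase of annotated exon it stood at 96.4 and 63.6 CPM per kb in med16-2 at low and high phosphate, and at 110 and 71.8 CPM per kb in Col-0 at low and high phosphate. Within the whole family it ranked 1 of 47 at low phosphate in both genotypes, and its ranks at high phosphate were 3 in med16-2 and 2 in Col-0. UMAMIT18 made up 73.8% and 72.1% of all member counts in med16-2 at low and high phosphate, against 56.8% and 48.7% in Col-0 at low and high phosphate.

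Behind UMAMIT18, the order of the members differed between libraries. In med16-2 at low phosphate UMAMIT14 (16.3 CPM per kb) was followed by UMAMIT11 (12.8), UMAMIT28 (3.38), UMAMIT17 (0.429), UMAMIT21 (0.355) and UMAMIT20 (0.182). The exact Poisson intervals of the last 3 overlapped from each to the next, and those of the others did not. In med16-2 at high phosphate UMAMIT11 (10.6 CPM per kb) and UMAMIT14 (9.0) overlapped, as did UMAMIT28 (1.78), UMAMIT17 (1.28) and UMAMIT20 (1.08) from each to the next, and UMAMIT21 stood at 0.259. In Col-0 at low phosphate UMAMIT14 (31.7 CPM per kb) and UMAMIT11 (19.6) were set apart, while UMAMIT28 (11.0), UMAMIT20 (9.95) and UMAMIT17 (9.06) overlapped from each to the next, ahead of UMAMIT21 (1.05). In Col-0 at high phosphate UMAMIT14 (22.0 CPM per kb), UMAMIT11 (18.1) and UMAMIT17 (16.7) overlapped from each to the next, ahead of UMAMIT20 (10.4), UMAMIT28 (7.37) and UMAMIT21 (0.316). At low phosphate, UMAMIT20 and UMAMIT17 thus lay below UMAMIT28 in med16-2 and next to it in Col-0.

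**Figure D1:**
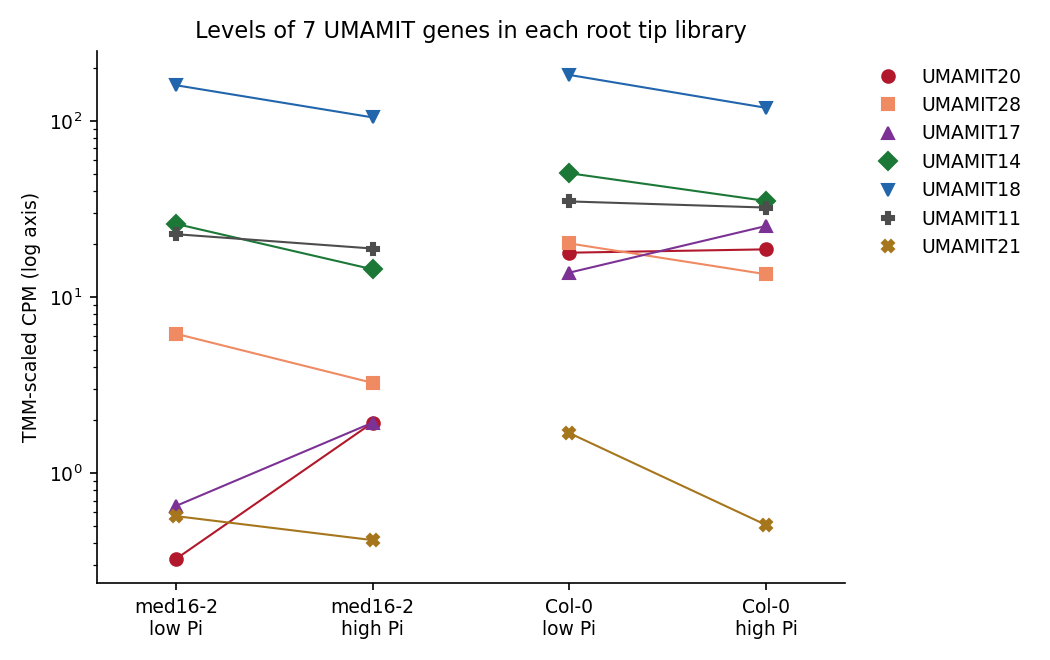
TMM-scaled CPM (log axis) of 7 members in each of the 4 libraries, 1 point per library, with lines joining the phosphate levels (Pi, phosphate) within a genotype. UMAMIT18 lies between 105 and 183 CPM in every library, and UMAMIT20 drops to 0.326 CPM in med16-2 at low phosphate, against 17.9 CPM in Col-0 at low phosphate.

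Of the 9 members, 6 passed the filter of 1 CPM. Among these, 4 met the size rule as lower in med16-2 at high phosphate and 3 at low phosphate, and 0 were higher at either level. Over all loci, 6.34% were lower and 0.712% higher by the same rule at high phosphate, and 6.14% were lower and 1.04% higher at low phosphate. The median log2 ratio of the 6 members was -1.33 at low phosphate (all loci 0.01) and -1.66 at high phosphate (all loci 0.02). The members were chosen on this contrast, so the counts are given as a description.

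UMAMIT20 had 4 and 28 counts in med16-2 at low and high phosphate, against 285 and 184 counts in Col-0 at low and high phosphate. This corresponds to 0.326 and 1.94 CPM in med16-2 at low and high phosphate, against 17.9 and 18.7 CPM in Col-0 at low and high phosphate. Both mutant libraries were below both Col-0 libraries, an order that the choice of this gene makes likely. The gene was 48.7-fold lower in med16-2 at low phosphate (21.1 to 202) and 9.46-fold lower at high phosphate (6.43 to 14.9). On the log2 scale its ratio at low phosphate was -5.61, and -4.63 with a pseudocount of 5.

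UMAMIT17, its neighbour, had 0.652 and 1.94 CPM in med16-2 at low and high phosphate (8 and 28 counts), against 13.8 and 25.4 CPM in Col-0 at low and high phosphate (220 and 250 counts). Here too the mutant libraries were below the Col-0 libraries, and the share of all loci with this order was not counted. UMAMIT17 was 19.9-fold lower in med16-2 at low phosphate (10.5 to 49.6) and 12.8-fold lower at high phosphate (8.81 to 20.0), the largest genotype ratio of any member at high phosphate. The log2 genotype ratio of UMAMIT20 minus that of UMAMIT17 was -1.29 (-2.96 to 0.38) at low phosphate and 0.44 (-0.36 to 1.24) at high phosphate, so the neighbours could not be set apart at this depth.

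UMAMIT28, an exporter known from developing seeds, had 6.20 and 3.26 CPM in med16-2 at low and high phosphate (76 and 47 counts), against 20.2 and 13.5 CPM in Col-0 at low and high phosphate (322 and 133 counts). The highest mutant library was below the lowest Col-0 library, again an order that the choice of the gene makes likely. UMAMIT28 was 3.24-fold lower in med16-2 at low phosphate (2.53 to 4.24) and 4.11-fold lower at high phosphate (2.94 to 5.90). On the log2 scale the genotype ratio of UMAMIT20 lay below that of UMAMIT28 by -3.91 (-5.30 to -2.52) at low phosphate and by -1.20 (-1.95 to -0.46) at high phosphate.

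UMAMIT14, which takes part in phloem unloading of amino acids in roots and siliques, had 26.1 and 14.4 CPM in med16-2 at low and high phosphate (320 and 207 counts), against 50.6 and 35.2 CPM in Col-0 at low and high phosphate (808 and 347 counts). It was 1.94-fold lower in med16-2 at low phosphate (1.70 to 2.22), just short of the size rule, and 2.45-fold lower at high phosphate (2.06 to 2.92). UMAMIT11, another exporter studied in the seed coat and vasculature, had 22.8 and 18.9 CPM in med16-2 at low and high phosphate, against 35.0 and 32.3 CPM in Col-0 at low and high phosphate. Its ratios of 1.53-fold (1.32 to 1.77) lower at low phosphate and 1.71-fold (1.45 to 2.02) lower at high phosphate were short of the rule. These genes were lower in both mutant libraries, by less than UMAMIT28.

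UMAMIT18, which moves amino acids in both directions across the plasma membrane and is known from vascular tissue, had 160 and 105 CPM in med16-2 at low and high phosphate (1957 and 1516 counts), against 183 and 119 CPM in Col-0 at low and high phosphate (2917 and 1172 counts). Here the libraries were ordered by phosphate rather than by genotype. UMAMIT18 was 1.15-fold (1.08 to 1.21) lower in med16-2 at low phosphate and 1.13-fold (1.05 to 1.22) lower at high phosphate. Although UMAMIT17 is its closest relative among the members, the log2 genotype ratio of UMAMIT17 minus that of UMAMIT18 was -4.12 (-5.11 to -3.13) at low phosphate and -3.51 (-4.08 to -2.94) at high phosphate.

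**Figure D2:**
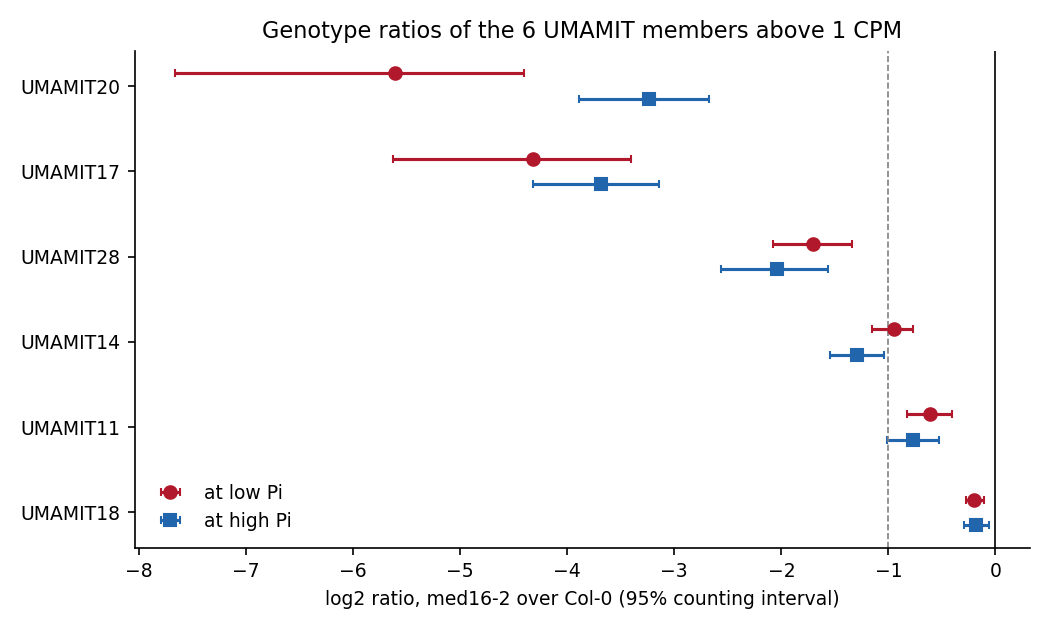
Log2 ratio of med16-2 over Col-0 for the 6 members above 1 CPM, at low phosphate (circles) and high phosphate (squares), with exact 95% counting intervals and a dashed line at a ratio of 2-fold lower. UMAMIT20 lies at -5.61 and -3.24 at low and high phosphate, UMAMIT17 at -4.32 and -3.68, and UMAMIT18 lies next to 0.

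The remaining members were nearly silent in the root tip. UMAMIT21 had 7 and 6 counts in med16-2 at low and high phosphate, against 27 and 5 counts in Col-0 at low and high phosphate, which left it under the filter. Its highest library was Col-0 at low phosphate, at 1.69 CPM. UMAMIT19 was counted 3 times, each in the Col-0 library at low phosphate, and UMAMIT32 had 0 counts in all 4 libraries. Where a library has 0 counts, the limit set by 3 counts is 0.245 and 0.208 CPM for med16-2 at low and high phosphate and 0.188 and 0.305 CPM for Col-0 at low and high phosphate.

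Summed over the 9 members, med16-2 had 216 and 146 CPM at low and high phosphate, against 322 and 245 CPM in Col-0 at low and high phosphate. Without UMAMIT18 the sums were 56.7 and 40.8 CPM in med16-2 at low and high phosphate, against 139 and 126 CPM in Col-0 at low and high phosphate. UMAMIT20, UMAMIT17 and UMAMIT28 together gave 7.17 and 7.15 CPM in med16-2 at low and high phosphate, against 51.8 and 57.6 CPM in Col-0 at low and high phosphate. The mutant libraries were below the Col-0 library of the same phosphate level in each of these sums, which share loci. The smaller sets leave out the member with the smallest genotype ratio or keep strongly lower loci. Their lower sums in med16-2 follow from that choice.

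The response to phosphate was not itself used to choose the members, though it is read from the same libraries as the genotype ratios. A low mutant count that led to the choice of a gene also enters its phosphate ratio in med16-2. At low phosphate in Col-0, 0 of the 6 members were higher and 0 lower by the size rule, which 3.24% of all loci met upwards and 1.49% downwards. The median log2 ratio of low over high phosphate was 0.32 for the members and -0.02 for all loci. In med16-2, 2 members were lower at low phosphate (1.03% of all loci) and 0 were higher (2.26% of all loci), with a median of 0.44 for the members and -0.01 for all loci.

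UMAMIT18 was higher at low phosphate in both genotypes, with 1.52-fold (1.42 to 1.62) in med16-2 and 1.54-fold (1.43 to 1.65) in Col-0. An additive model of genotype and phosphate was fitted to all 4 libraries with edgeR's quasi-likelihood test. It has 1 residual degree of freedom and treats any dependence of the phosphate response on genotype as error. In this fit UMAMIT18 rose by 0.61 on the log2 scale at low phosphate (edgeR, Benjamini-Hochberg adjusted p = 0.0478, higher in 2 of 2 genotypes), close to the threshold of 0.05. It was the only member of 6 called, and the fit called 0.781% of all loci higher and 0.187% lower.

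UMAMIT14 had a log2 phosphate ratio of 0.86 (0.60 to 1.12) in med16-2 and 0.52 (0.34 to 0.71) in Col-0, and 0.68 in the additive fit, where edgeR gave an adjusted p of 0.0917. UMAMIT28 had log2 phosphate ratios of 0.92 (0.38 to 1.48) in med16-2 and 0.58 (0.28 to 0.88) in Col-0, and its adjusted p in the edgeR fit was 0.184. UMAMIT11 had log2 phosphate ratios of 0.27 (0.03 to 0.52) in med16-2 and 0.11 (-0.09 to 0.32) in Col-0, with an edgeR adjusted p of 0.521. These members had a higher value at low phosphate in both genotypes without passing the test.

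The neighbouring pair had log2 phosphate ratios below 0, though in Col-0 the interval of UMAMIT20 included 0. UMAMIT17 was 2.86-fold lower at low phosphate in med16-2 (1.32 to 7.57), where it met the size rule on 8 counts against 28, and 1.84-fold lower in Col-0 (1.53 to 2.22). In the additive fit its log2 ratio was -1.01, with an edgeR adjusted p of 0.137. UMAMIT20 was 5.40-fold lower at low phosphate in med16-2 (2.09 to 23.4), on 4 counts against 28. With a pseudocount of 5 its log2 ratio moved to -1.64, against -2.43 with 0.5, while in Col-0 its log2 phosphate ratio was -0.07 (-0.34 to 0.21). In Col-0 the log2 phosphate ratio of UMAMIT20 minus that of UMAMIT17 was 0.81 (0.44 to 1.19), and in med16-2 it was -0.92 (-2.73 to 0.89). The edgeR fit gave UMAMIT20 a log2 ratio of -0.47 with an adjusted p of 0.682. In Col-0 the log2 phosphate ratio of UMAMIT17 lay below that of UMAMIT18 by -1.50 (-1.78 to -1.22), and in med16-2 by -2.11 (-3.22 to -1.0).

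The difference between the genotype ratios at low and at high phosphate was taken per locus, with a normal interval for counting error. It met the 2-fold rule for UMAMIT20, at -2.37 on the log2 scale (-3.82 to -0.91) and -1.56 with a pseudocount of 5 in place of 0.5. The low-phosphate value behind it rests on 4 counts in the library with the largest share of alignments that were not unique. Among all loci, 2.16% met this rule below 0 and 2.30% above 0. The difference was -0.63 (-1.77 to 0.50) for UMAMIT17, 0.34 (-0.26 to 0.94) for UMAMIT28, 0.34 (0.03 to 0.65) for UMAMIT14, 0.16 (-0.15 to 0.47) for UMAMIT11 and -0.02 (-0.16 to 0.12) for UMAMIT18. The difference is built from the genotype ratios on which the members were chosen, so it is given as a description. With 1 library per group, no test of this difference could be made.

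Loci next to the members were set beside them, a comparison chosen after values had been seen. Of the 5 nearest loci above 1 CPM on either side of the UMAMIT20 and UMAMIT17 pair, 0 of 10 met the size rule at either phosphate level. Their log2 genotype ratios ran between -0.25 and 0.66 at low phosphate and between -0.42 and 0.48 at high phosphate. Around UMAMIT28, 0 of 10 neighbours met the rule, with ratios between -0.95 and 0.32 at low phosphate and between -0.83 and 0.90 at high phosphate. By the same rule, 6.14% of all loci were lower and 1.04% higher at low phosphate. At high phosphate 6.34% were lower and 0.712% higher, so counts of 0 of 10 are near the background.

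**Figure D3:**
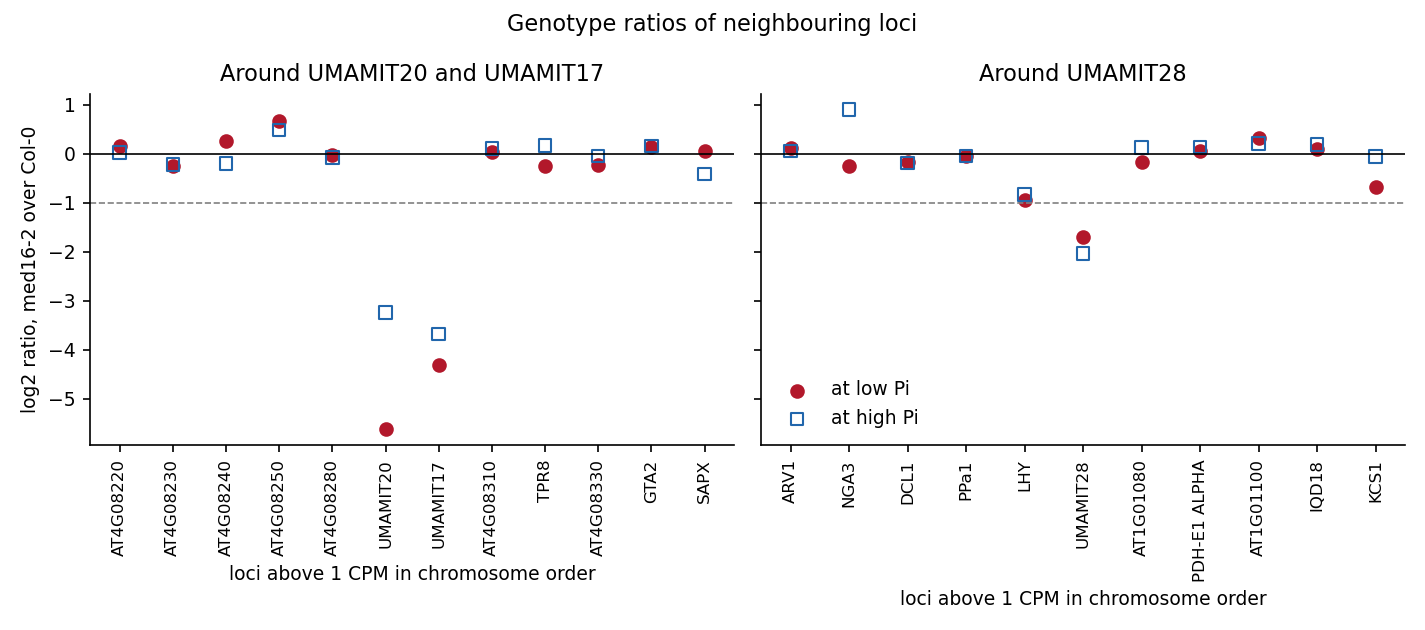
Log2 ratio of med16-2 over Col-0 for the members and the 5 nearest loci above 1 CPM on either side, in chromosome order, at low phosphate (filled circles) and high phosphate (open squares), with a dashed line at a ratio of 2-fold lower. UMAMIT20 and UMAMIT17 lie at -5.61 and -4.32 at low phosphate, between neighbours at -0.25 to 0.66, and at -3.24 and -3.68 at high phosphate, between neighbours at -0.42 to 0.48.

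The profile of each locus over the 4 libraries, as centred log2 CPM, was compared with those of UMAMIT20 and UMAMIT28 by Euclidean distance over the 15284 loci that averaged 5 CPM or more. UMAMIT17 was the nearest of all to UMAMIT20, at a distance of 0.97. AT4G39675 (1.08), AT5G17040 (1.39), AT5G57785 (1.48) and KIN2 (1.52), a cold-regulated gene, followed. KIN2 had 1.39 and 1.94 CPM in med16-2 at low and high phosphate, against 49.6 and 60.6 CPM in Col-0 at low and high phosphate. UMAMIT28 ranked 220 on this scale. The points are 4 libraries, and distances describe them only.

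The loci nearest to UMAMIT28 were AT4G09760 (0.13), AT3G53980 (0.16), AT1G31710 (0.26), RTFL12 (0.31), of a family of small peptides, and ZAT6 (0.36), a zinc finger transcription factor. ZAT6 had 4.65 and 3.06 CPM in med16-2 at low and high phosphate, against 20.3 and 10.5 CPM in Col-0 at low and high phosphate. UMAMIT14 ranked 82 by its distance to UMAMIT28, whereas UMAMIT20 and UMAMIT17 ranked 15254 and 15190 of 15284. UMAMIT20 and UMAMIT28 lay 3.52 apart in both rankings. This distance grows with the size of the genotype drop, on which both loci were chosen. For UMAMIT20 it rests in part on 4 counts in med16-2 at low phosphate. UMAMIT18, which hardly differed between genotypes, ranked 2416 by its distance to UMAMIT28.

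Of the other 38 UMAMIT loci, 26 passed the filter and 6 had 0 counts in every library. At low phosphate the size rule took 10 of the 26 as lower in med16-2 and 0 as higher (median log2 ratio -0.64), and at high phosphate 5 as lower and 0 as higher (median -0.38). The rule took 6.14% and 6.34% of all loci as lower at low and high phosphate. In the additive fit 4 of the 26 were lower in med16-2 and 0 higher (edgeR, adjusted p under 0.05), beside 6.52% of all loci lower and 0.792% higher. The 4 were UMAMIT31 (log2 -3.24, edgeR adjusted p = 0.0115), UMAMIT12 (-1.41, 0.0121), UMAMIT33 (-1.22, 0.0143) and UMAMIT30 (-0.84, 0.0146). UMAMIT33 and UMAMIT30 are named after their values had been seen. UMAMIT31 had 0.652 and 0.834 CPM in med16-2 at low and high phosphate and passed the filter only through its Col-0 libraries. Its calls are therefore no separate support. The same holds for the size rule calls of UMAMIT29, at 0.0815 and 0.764 CPM in med16-2 at low and high phosphate.

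UMAMIT31 had 8 and 12 counts in med16-2 at low and high phosphate, against 150 and 53 counts in Col-0 at low and high phosphate. It was 13.6-fold lower in med16-2 at low phosphate (7.13 to 34.0) and 6.25-fold lower at high phosphate (3.41 to 13.3). UMAMIT29, an exporter of the seed, had 1 and 11 counts in med16-2 at low and high phosphate, against 54 and 19 counts in Col-0 at low and high phosphate. It was 27.9-fold lower in med16-2 at low phosphate (7.14 to 1670) and 2.48-fold lower at high phosphate (1.14 to 5.87), and its interval at low phosphate is wide because it rests on 1 count. UMAMIT29 and UMAMIT31 lie in a row with UMAMIT30 on chromosome 4, at chr4:585598-588126, chr4:596397-598752 and chr4:608273-610765. UMAMIT12 was 2.67-fold lower in med16-2 at low phosphate (2.03 to 3.61) and 2.64-fold lower at high phosphate (1.98 to 3.56).

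**Figure D4:**
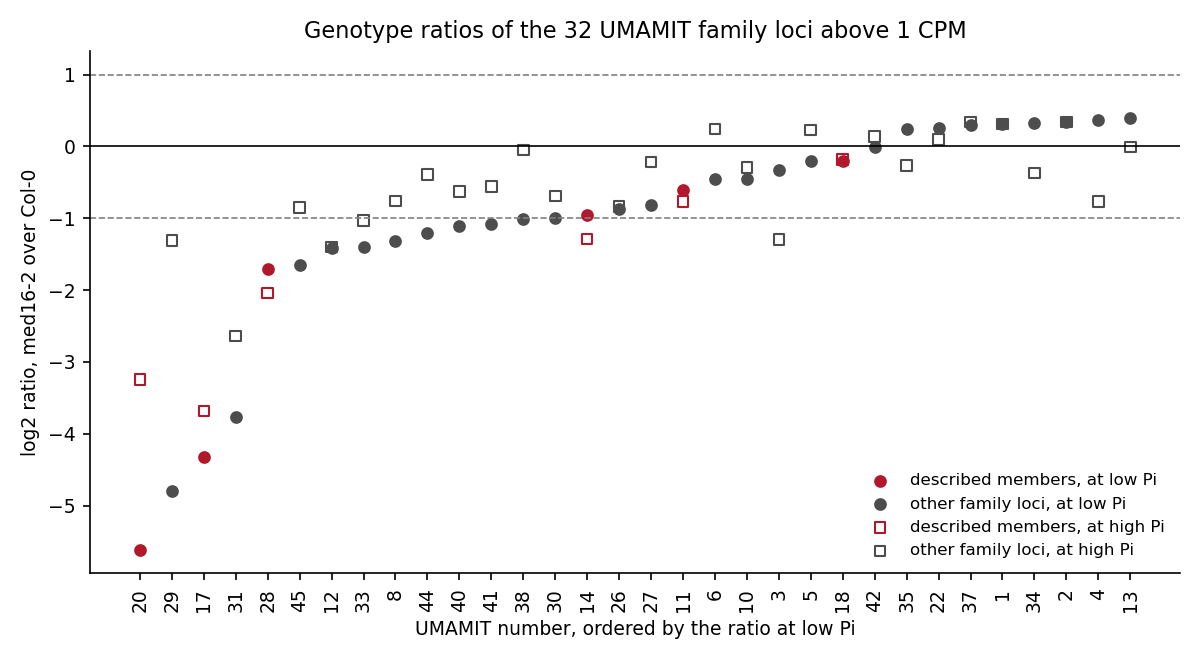
Log2 ratio of med16-2 over Col-0 for the 32 UMAMIT loci above 1 CPM, ordered by the ratio at low phosphate (filled circles, high phosphate open squares), with the described members in red, other family loci in grey and dashed lines at 2-fold. UMAMIT20, UMAMIT29, UMAMIT17 and UMAMIT31 stand at the low end, at -5.61, -4.80, -4.32 and -3.77 at low phosphate and at -3.24, -1.31, -3.68 and -2.64 at high phosphate.

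Other amino acid carriers, most of them importers (AAP, LHT, ProT and CAT permeases, GAT1, ANT1 and BAT1), were described from a list of 26 loci, of which 19 passed the filter. By the size rule 4 of the 19 were lower in med16-2 at low phosphate and 2 at high phosphate, while 0 were higher at either level. Their medians were -0.27 at low and -0.13 at high phosphate. These shares stand beside 6.14% of all loci lower at low and 6.34% at high phosphate. In the additive edgeR fit 3 of the 19 were lower and 0 higher, where 6.52% of all loci were lower. That count was 5 of 19 with DESeq2, 7 of 26 without the filter and 2 of 19 without ribosomal RNA and organelle loci. AAP3, a permease of the root vasculature, had 18 and 47 counts in med16-2 at low and high phosphate, against 217 and 108 counts in Col-0 at low and high phosphate. AAP3 fell by 2.38 on the log2 scale in med16-2 (edgeR, adjusted p = 0.0227, lower at 2 of 2 phosphate levels). ANT1, a transporter of aromatic and neutral amino acids, had 321 and 265 counts in med16-2 at low and high phosphate, against 592 and 481 counts in Col-0 at low and high phosphate, and its log2 ratio in the fit was -0.95 (edgeR adjusted p = 0.0616).

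The GDU genes code for small membrane proteins that raise amino acid export when overexpressed. The list of 8 holds GDU1 to GDU7 and also LOG2, which is not a GDU gene. Of the 8, 6 passed the filter, LOG2 among them. By the size rule 0 were called higher or lower in med16-2 at either phosphate level, with medians of -0.35 at low and -0.06 at high phosphate. Of all loci 6.14% and 6.34% were lower at low and high phosphate. GDU6, set aside at a mean of 0.992 CPM, had 7 counts in med16-2 against 51 in Col-0 at low phosphate. Without the filter it would meet the size rule there, at 5.28-fold lower (2.53 to 14.6). The edgeR fit called 0 of the 6, with 1 of the 6 at an unadjusted p under 0.05, and DESeq2 called 0. Over all loci the edgeR fit called 6.52% lower and 0.792% higher. With libraries scaled by total gene counts, 7 passed the filter and the edgeR fit called 1 of them lower.

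Of 23 genes of amino acid metabolism, 22 passed the filter. By the size rule 1 was lower and 0 were higher in med16-2 at low phosphate, 2 were lower and 1 was higher at high phosphate, and the medians were -0.02 and 0.10 at low and high phosphate. Of all loci 6.14% were lower and 1.04% higher at low phosphate, and 6.34% were lower and 0.712% higher at high phosphate, so the counts of this list are near the background. GLU1, the main ferredoxin-dependent glutamate synthase of leaves, had 17 and 19 counts in med16-2 at low and high phosphate, against 58 and 103 counts in Col-0 at low and high phosphate. GLU1 was 2.57-fold lower in med16-2 at low phosphate (1.51 to 4.80) and 7.76-fold lower at high phosphate (4.82 to 13.7). GAD2, a glutamate decarboxylase, was 2.23-fold lower in med16-2 at high phosphate (2.07 to 2.40). ASN1, an asparagine synthetase, was 2.13-fold higher in med16-2 at high phosphate (1.87 to 2.45), and its log2 ratio at low phosphate was -0.41. Within this list, GLU1 at high phosphate was the gene with a larger genotype ratio than UMAMIT28, and at low phosphate there was none.

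Markers of other cells were read beside these results. Of 13 phloem markers 12 passed the filter, and 1 of them, SWEET11, a sucrose exporter of phloem parenchyma, was lower in med16-2 at each phosphate level. By the size rule 6.14% and 6.34% of all loci were lower at low and high phosphate, so this count is near the background. SWEET11 had 0 and 1 counts in med16-2 at low and high phosphate, against 53 and 9 counts in Col-0 at low and high phosphate, which makes it at least 13.6-fold lower at low phosphate (against 3 counts in the mutant library). SUC2, the sucrose loader of companion cells, had 35.9 and 24.8 CPM in med16-2 at low and high phosphate, against 21.2 and 13.9 CPM in Col-0 at low and high phosphate. The summed phloem markers stood at 184 and 138 CPM in med16-2 at low and high phosphate, against 171 and 134 CPM in Col-0 at low and high phosphate. Without SUC2 the sums were 149 and 113 CPM in med16-2 at low and high phosphate, against 150 and 121 CPM in Col-0 at low and high phosphate, so SUC2 decides which genotype has the higher sum. The additive edgeR fit called SUC2 higher (log2 0.79, adjusted p = 0.0181) and SWEET11 lower (log2 -5.40, adjusted p = 0.0279) in med16-2, 2 of the 12. Over all loci it called 0.792% higher and 6.52% lower. SWEET11 averaged 1.08 CPM and passed the filter only through its Col-0 libraries, so its call is no separate support. Without the filter the fit called 1 of 13 phloem markers higher and 2 lower, beside 312 and 1641 of 24296 loci. The 6 xylem markers summed to 341 and 271 CPM in med16-2 at low and high phosphate, against 409 and 403 CPM in Col-0 at low and high phosphate, and 0 met the size rule.

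Photosynthetic markers were also lower in med16-2, as were 6.14% and 6.34% of all loci by the size rule at low and high phosphate. Of the 7, 6 passed the filter, and these 6 were lower in med16-2 at both phosphate levels. Their sum was 17.6 and 9.45 CPM in med16-2 at low and high phosphate, against 137 and 155 CPM in Col-0 at low and high phosphate. RBCS1A, a small subunit of Rubisco, had 1 and 0 counts in med16-2 at low and high phosphate, against 65 and 108 counts in Col-0 at low and high phosphate, and the marker LHCB1.1 was at 0 in all 4 libraries. RBCS1A and the marker GAPA (0.978 and 0.625 CPM in med16-2 at low and high phosphate) passed the filter only through their Col-0 libraries. Their calls are therefore no separate support. LHB1B2, a light-harvesting protein, had 4.89 and 1.88 CPM in med16-2 at low and high phosphate, against 83.1 and 77.2 CPM in Col-0 at low and high phosphate. PSAF, a subunit of photosystem I, had 3.10 and 1.39 CPM in med16-2 at low and high phosphate, against 15.5 and 16.9 CPM in Col-0 at low and high phosphate. EXPA18, a root hair expansin, was the marker of matured root that met the size rule, at high phosphate alone, with 92.6 and 73.4 CPM in med16-2 at low and high phosphate, against 111 and 152 CPM in Col-0 at low and high phosphate. Its list of 5 summed to 522 and 459 CPM in med16-2 at low and high phosphate, against 642 and 709 CPM in Col-0 at low and high phosphate. In the additive edgeR fit CASP1 (log2 -0.40, adjusted p = 0.0455) and CASP2 (log2 -0.55, adjusted p = 0.0256), which code for Casparian strip proteins, were lower in med16-2, 2 of the 5, and EXPA18 was not called (log2 -0.65, adjusted p = 0.0974). The fit called 6.52% of all loci lower. The part of these cell types in the UMAMIT values was not tested.

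**Figure D5:**
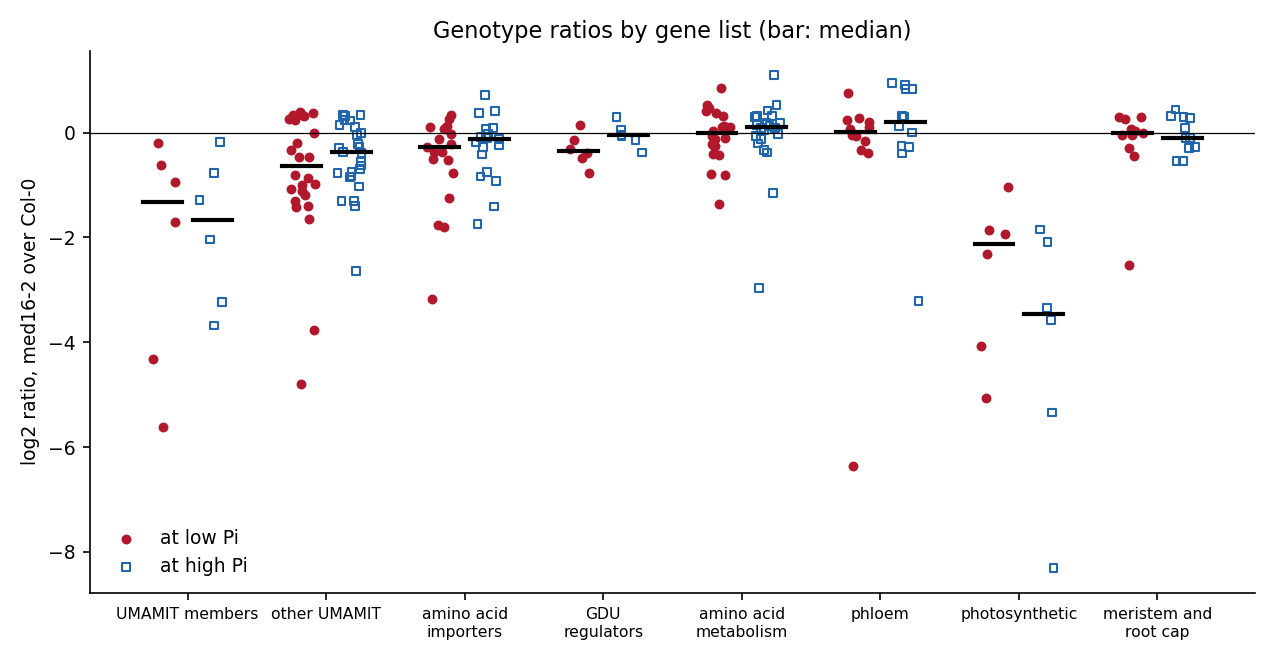
Log2 ratio of med16-2 over Col-0 of every gene above 1 CPM in 8 lists, at low phosphate (filled circles) and high phosphate (open squares), with a bar at each median and points spread sideways for legibility. The medians of the UMAMIT members are -1.33 and -1.66 at low and high phosphate, and those of the photosynthetic markers -2.13 and -3.46. Those of the GDU list, which includes LOG2, are -0.35 and -0.06.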

How the data were processed

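Root tip RNA of 4 groups, 1 library each, was sequenced from non-strand-specific TruSeq libraries made from 5 µg of total RNA, per the labels' protocols. The authors deposited raw counts per locus for each library. The tools named are TopHat2 2.0.9, HTSeq 0.6.0 and Trimmomatic 0.35, with the TAIR10 build, per the submitters' processing notes. Their settings were not given in the sources used here. Lines that name no gene (42.1% and 10.1% of all listed counts in med16-2 at low and high phosphate, 9.89% and 12.5% in Col-0 at low and high phosphate) were left out.

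Counts were scaled with TMM, with factors between 0.9774 and 1.0170. Log2 ratios used a pseudocount of 0.5. The additive model was fitted across loci with edgeR 4.0.16 in R 4.3.3, with Benjamini-Hochberg adjustment over all loci tested. DESeq2 1.42.0 served as an alternative. The size rule was run on counts simulated with counting error only, and the fit on counts simulated with a fixed added spread. The spread between plants is unknown here, so these runs do not cover it. Exon lengths, positions, windows and coding sequences came from the RefSeq TAIR10.1 genome and annotation, and all 47 family loci were matched by locus identifier. Intervals and floors cover counting error only, and reads without molecular identifiers are not independent molecules. With 1 library per combination of genotype and phosphate, no spread between replicates enters the p-values. Their error term comes from how far these 4 libraries depart from the additive model.

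The members, the 9 lists (137 loci) and the tests were chosen with earlier results of these data known. Named were all members, MED16, up to 3 loci of each list with the largest genotype ratio at high phosphate among those meeting the size rule, and the 5 loci nearest in profile to UMAMIT20 and to UMAMIT28. Other names are marked where used, or serve as markers. The alternatives were another scaling, filter, pseudocount or fold, leaving out 283 ribosomal RNA and organelle loci, and DESeq2.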

Additional observations from a re-analysis of the deposited data

Results flagged for a closer look

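UMAMIT29 and UMAMIT4, which are outside the 9 members, had phosphate ratios of opposite sign in the genotypes. UMAMIT29 had a log2 ratio of low over high phosphate of -2.71 in med16-2 and 0.79 in Col-0, a difference of -3.49, with the mutant value resting on 1 count at low phosphate. UMAMIT4 had log2 phosphate ratios of 0.18 in med16-2 and -0.97 in Col-0, a difference of 1.15. RCA, the activase of Rubisco and one of the photosynthetic markers, had log2 phosphate ratios of 0.78 in med16-2 and -0.63 in Col-0, a difference of 1.41.

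The asparagine synthetase gene ASN1 had genotype ratios of opposite sign at the phosphate levels, with a log2 ratio of med16-2 over Col-0 of -0.41 at low phosphate and 1.09 at high phosphate, a difference of -1.50. None of these 4 differences was tested, because each group has 1 library.

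In the med16-2 library at low phosphate, 36.6% of the listed counts were alignments that were not unique and entered no gene count. The share was 7.18% in med16-2 at high phosphate, and 6.65% and 9.27% in Col-0 at low and high phosphate.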

How the results depend on the processing

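No result changed sign under any alternative run. The log2 genotype ratio at low phosphate ran between -5.64 and -4.63 for UMAMIT20 and between -4.35 and -3.73 for UMAMIT17, and for the other passing members it moved by less. For single genes, 203 alternative values kept their side of the threshold and 1 did not: without the filter on low counts UMAMIT14 passed the edgeR test for phosphate (adjusted p = 0.0454), which gave 2 members called higher. For UMAMIT18, edgeR adjusted p was 0.0285 with scaling by total gene counts and 0.0189 without the filter, and DESeq2 gave 0.022.

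Without the filter 1 member, UMAMIT21, was higher at low phosphate in Col-0. It also met the rule as lower in med16-2 at low phosphate, 2.82-fold (1.26 to 8.06), on 7 counts against 27 in Col-0. These calls are given as a description. At 1.5-fold, 5 members were lower in med16-2 at low phosphate, 3 were higher at low phosphate in med16-2, and in Col-0 1 was higher and 1 lower at low phosphate. Other family loci at 1.5-fold were lower in med16-2 in 8 cases at high phosphate, higher at low phosphate in 5 (med16-2) and 11 (Col-0), lower in 2 and 1, and differed between genotype ratios in 2 (above 0) and 5 (below 0). At a mean of 5 CPM, other family loci lower in med16-2 numbered 5 at low and 2 at high phosphate, those higher at low phosphate 0 in med16-2 and 3 in Col-0, those lower at low phosphate in med16-2 0, and those with a difference below 0 also 0. That difference held for 0 loci with a pseudocount of 5 and for 2 with total gene counts. In the additive fit, other family loci higher at low phosphate numbered 3 with DESeq2, 2 with total gene counts and 4 without the filter.

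Over all loci, the 1.5-fold rule gave 2219 lower and 612 higher in med16-2 at low phosphate, 2295 lower and 517 higher at high phosphate, 475 lower and 942 higher at low phosphate in med16-2, 779 lower and 1303 higher at low phosphate in Col-0, and 880 below and 994 above 0 for the difference. The 5 CPM filter, with fewer loci tested, gave in the same order 579 and 57, 710 and 33, 71 and 181, 134 and 255, and 164 and 205. A pseudocount of 5 gave 64 higher in med16-2 at high phosphate and 246 below 0 for the difference. In the additive fit for genotype, 148 loci were higher and 1218 lower; DESeq2 gave 37 higher and 796 lower, total gene counts 391 higher and no filter 312 higher. For phosphate 146 loci were higher and 35 lower; DESeq2 gave 57 lower, and no filter 298 higher and 97 lower. Except where a filter changes the loci tested or a rule its fold, the cause was not tested.

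No paired analysis was possible because each group has 1 library and the replicate number only names it; for the same reason leaving out a library within a group was not run. Depth limits UMAMIT20 and UMAMIT17 in med16-2 and all values of UMAMIT21, UMAMIT19 and UMAMIT32.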

Other observations

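Some transporters outside the 9 members were chosen here after their values had been seen. UMAMIT10 had 67 and 18 counts in med16-2 at low and high phosphate and 120 and 15 counts in Col-0 at low and high phosphate. It was 4.28-fold higher at low phosphate in med16-2 (2.57 to 7.81) and 4.80-fold higher in Col-0 (2.88 to 9.10). UMAMIT26 had 27 and 4 counts in med16-2 at low and high phosphate and 65 and 5 counts in Col-0 at low and high phosphate. Both genes were higher at low phosphate in each genotype.

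AAP6, an amino acid permease known from the xylem parenchyma, stayed under the filter. It had 0 and 0 counts in med16-2 at low and high phosphate, against 33 and 3 counts in Col-0 at low and high phosphate, so it was at least 8.45-fold lower in med16-2 at low phosphate (against 3 counts in the mutant library). SWEET12, a sucrose exporter close to SWEET11, had 0 and 1 counts in med16-2 at low and high phosphate, against 17 and 17 counts in Col-0 at low and high phosphate.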
